A study of Mus musculus with 7 samples.

Results

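The 6 rows of the liver gene tables described here are the cytochrome P450 genes Cyp2b9, Cyp2b10 and Cyp2b13, the receptor genes Nr1i3 and Nr1i2, which encode CAR and PXR, and Por, which encodes NADPH-cytochrome P450 reductase. They were chosen by gene symbol, are 6 of the 23366 rows of each table, and all were found. The tables come from liver of C57BL/6 mice, an inbred strain, at 3 months (n = 4) and 21 months (n = 3). The labels name no treatment, genetic change, sex, cage or time of sampling for either age. Nor do they state whether each sample was a different mouse, so a p-value here reflects sample-to-sample spread that could be technical. RNA enriched for mRNA was sequenced by a strand-specific protocol, and the question is how liver transcripts differ between young and old mice.

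Cytochromes P450 of the Cyp2b group oxidize drugs, steroids and other foreign and fatty compounds in the endoplasmic reticulum of hepatocytes, and they take electrons from the reductase made from Por. Cyp2b10 is the classic gene induced by phenobarbital in mouse liver, through CAR, a nuclear receptor held in the cytosol until it is activated. PXR is a related receptor opened by a wide range of ligands, and both receptors bind DNA with RXR. Cyp2b9 and Cyp2b13 are known as female-predominant genes of adult mouse liver.

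In the RefSeq gene order on chromosome 7, Cyp2b10 comes before Cyp2b13, Cyp2b13 before Cyp2b9, and Cyp2b23 and Cyp2b19 follow. Pseudogenes lie between Cyp2b10, Cyp2b13 and Cyp2b9. All 3 members had 1 entry each in the RefSeq promoter table (build GRCm38.p6; the deposited tables are on mm9). The 250 bases before the start of each are shown because they display how close the copies are. In Cyp2b9 and Cyp2b13, capitals mark the bases at which this pair differs. In Cyp2b10, capitals mark bases that differ from, or have no partner in, Cyp2b9 in a global alignment.
Cyp2b9, chr7:26173159-26173408, plus strand: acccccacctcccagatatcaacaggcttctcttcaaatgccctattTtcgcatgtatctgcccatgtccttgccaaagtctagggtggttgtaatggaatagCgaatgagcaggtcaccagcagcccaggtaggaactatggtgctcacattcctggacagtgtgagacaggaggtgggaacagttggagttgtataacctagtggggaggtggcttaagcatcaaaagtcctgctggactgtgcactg
Cyp2b13, chr7:26061245-26061494, plus strand: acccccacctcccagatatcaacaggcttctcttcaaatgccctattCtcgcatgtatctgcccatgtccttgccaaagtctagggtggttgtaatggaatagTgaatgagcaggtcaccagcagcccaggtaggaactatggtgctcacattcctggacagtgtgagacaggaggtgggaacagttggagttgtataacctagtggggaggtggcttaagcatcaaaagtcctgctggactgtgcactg
Cyp2b10, chr7:25897408-25897657, plus strand: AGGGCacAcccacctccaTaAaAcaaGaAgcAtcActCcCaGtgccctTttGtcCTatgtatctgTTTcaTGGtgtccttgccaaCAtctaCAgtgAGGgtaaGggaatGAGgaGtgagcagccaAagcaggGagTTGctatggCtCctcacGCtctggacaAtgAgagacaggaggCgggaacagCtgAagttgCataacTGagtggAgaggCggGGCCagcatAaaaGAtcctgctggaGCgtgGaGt
Cyp2b9 and Cyp2b13 were identical at 248 of the 250 bases (99.2%). The differences, counted from 1 at the 5′ end of the window with the Cyp2b9 base first, were T48C and C104T. Cyp2b10 matched either of them at 182 bases (72.8%).

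Letters of the nuclear receptor hexamer AGGTCA, searched on both strands, occurred once in the windows of Cyp2b9 and Cyp2b13, both at position 113, and not in those of Cyp2b10, Nr1i2, Nr1i3 or Por. They also occurred in the windows of Cyp2b19 (position 130) and Cyp2b23 (position 87). The hexamer was in 14% of 32851 windows of the same length in the RefSeq table. The related hexamer AGTTCA and the letters TATAAA were in none of the members' windows and in 11.8% and 12.4% of all windows. The letters TTGCATAA, picked after the sequences were seen, stood at position 193 of the Cyp2b10 window, 211 of the Cyp2b19 window and 166 of the Cyp2b23 window, were absent from those of Cyp2b9 and Cyp2b13, and were in 0.694% of all windows. These are matches of letters and do not show binding. Bases outside these windows were not searched, so an absence holds for the windows alone.

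Library totals ran from 4724687 to 11143125 expected counts, of which the ribosomal RNA precursor row Rn45s took 18.7% to 25.6%. Of 11251 genes tested with edgeR (quasi-likelihood), 11.3% passed an adjusted p of 0.05 in either direction; 5.47% were higher and 5.86% lower at 21 months. Levels are given as CPM, counts per 1000000 scaled counts, unless TPM, which also allows for gene length, is named. A log2 fold change is 21 months against 3 months. The members tested were 5 of 6, and Cyp2b10 and Cyp2b9 were called higher. Cyp2b9 reached the 1.45 CPM of the low-count filter in 0 of 4 young and 3 of 3 old libraries, so it entered the test only through the age at which it is high. Hepatocyte markers, all 8 present, summed to 65287 to 77921 CPM at 3 months and 82223 to 87994 CPM at 21 months (1 rose, 1 fell). The summed lymphocyte markers (8 present, 1 tested, 0 called by edgeR) were 3.25 to 4.85 and 5.42 to 17.7 CPM, and the neutrophil markers (5 present, none abundant enough to test) 0.343 to 1.21 and 1.48 to 4.05 CPM. The summed macrophage, endothelial (1 fell), stellate (1 rose), fat and red cell markers overlapped between ages. The 5 bile duct markers (31.8 to 46.3 and 28.9 to 31.6 CPM, 1 fell) did not. No listed marker present in the tables was at 0 in every library. The part of these shifts in the results was not tested, and in bulk liver fewer cells of a type and less RNA per cell cannot be told apart.

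Cyp2b transcripts were scarce in young livers and rose in old ones. The summed expected counts of Cyp2b9, Cyp2b10 and Cyp2b13 were 14, 14, 19 and 18 in 3-month replicates 1 to 4, and 632, 244.01 and 218 in 21-month replicates 1 to 3. Scaled for depth, the sum was 2.55, 1.20, 3.84 and 2.92 CPM at 3 months and 62.3, 33.9 and 25.8 CPM at 21 months. The ages did not overlap, which held in the same direction for 11.3% of genes tested, and replicate 1 was the highest of the old livers. In a fit on the sum in place of the 3 rows, the rise was 17.1-fold (log2 fold change 4.10 ± 0.46 SE, 95% interval 2.98 to 5.21; edgeR adjusted p = 0.00374). That fit called 11.3% of genes in either direction and 5.46% higher.

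**Figure D1:**
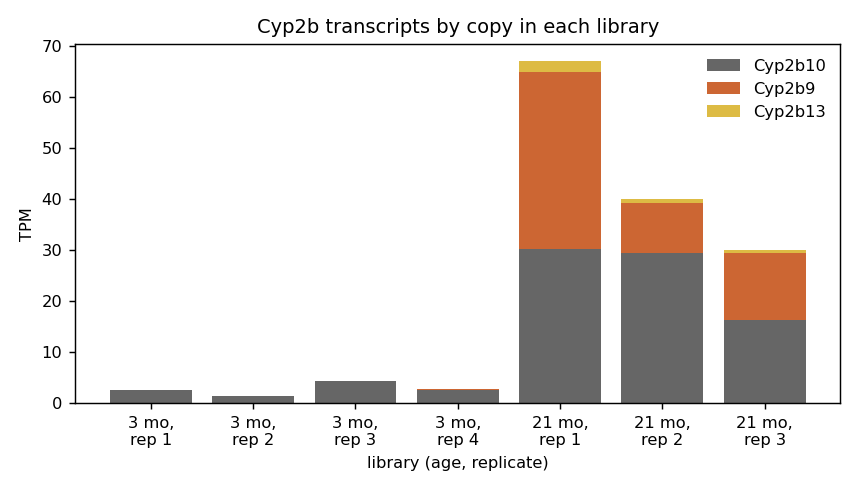
Stacked bars of Cyp2b10, Cyp2b9 and Cyp2b13 in TPM (y axis, from 0) for each of the 7 libraries (x axis). The summed bars reach 1.35 to 4.27 TPM at 3 months and 30.1 to 67.0 TPM at 21 months, and Cyp2b9 forms a visible part of the bars of old livers (24.2% to 51.7%).

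The phenobarbital-inducible copy Cyp2b10 made up nearly all Cyp2b RNA of young livers. Young replicates 1 to 4 had 2.55, 1.20, 3.84 and 2.76 CPM of it, and old replicates 1 to 3 had 28.0, 25.0 and 13.9 CPM. Each old library exceeded each young one, as for 11.3% of genes tested. The rise was 9.40-fold (log2 fold change 3.23 ± 0.35 SE; edgeR adjusted p = 0.000889), and it was the 12th largest log2 fold change of the genes tested.

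Cyp2b9 went from nearly no reads to 24.2% to 51.7% of summed Cyp2b TPM in old livers. It had 0 expected counts in 3-month replicates 1 to 3 and 1 in replicate 4, against 327.07, 59.09 and 96.31 in the old livers. In CPM this was 0, 0, 0 and 0.162 at 3 months and 32.2, 8.24 and 11.4 at 21 months. The ratio of group sums was 529, with a 95% counting interval of 94.5 to 20948. The edgeR adjusted p was 0.00719 with all libraries and 0.0177 with no filter on low counts. As the old livers alone carried it past the filter, its counts describe the difference and the p adds no support. The call was lost without 3-month replicate 4, the young library holding the single count (log2 fold change 10.13 against 8.41, edgeR adjusted p = 0.146).

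Cyp2b13, the near copy of Cyp2b9, was listed at 0 in each young library and had 21.07, 5.46 and 4.29 expected counts in 21-month replicates 1 to 3. Its CPM in the old livers was 2.07, 0.698 and 0.476, where 3 counts, the limit that a count of 0 allows, are 0.296, 0.419 and 0.357 CPM. Against 3 counts over the whole 3-month group (0.106 CPM), it was at least 11.3-fold higher at 21 months, with the 31 old counts taken as exact. With counting error in both groups, the lower 95% limit of the ratio was 8.69. The limits and intervals hold for counting error alone. They leave out the spread between samples and take the division of reads among the copies as given. Duplicate molecules from PCR were counted like any other. Cyp2b13 did not pass the filter on low counts and so has no test in the comparison. With no such filter its edgeR adjusted p was 0.000545. As only the old livers hold counts of it, its counts describe the difference and this p adds no support. Cyp2b19 and Cyp2b23, other genes of the cluster, were listed at 0 in all 7 libraries.

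How the reads were divided among the copies is visible in the counts. In the old livers, the expected counts of each of the 3 copies had fractions, while their sum was whole within 0.02 counts in 3 of 3 old libraries. The fractions cancelled within the group of 3, so the sum does not depend on how reads were divided among them. Of the summed TPM, Cyp2b9 took 51.7%, 24.2% and 44.1% in 21-month replicates 1 to 3, Cyp2b10 45.0%, 73.6% and 53.9%, and Cyp2b13 3.33%, 2.22% and 1.96%. Cyp2b9 was thus above Cyp2b10 in replicate 1 (34.62 against 30.13 TPM) and below it in replicates 2 (9.67 against 29.46) and 3 (13.27 against 16.22). At 3 months Cyp2b9 was at 0% in 3 libraries and 5.67% in replicate 4, where that share rests on a single read.

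Among 101 P450 rows named by family, subfamily and number, the 3 Cyp2b rows remained a small part even in old livers. Their share of summed P450 TPM was 0.00813% to 0.0247% at 3 months and 0.132% to 0.316% at 21 months. Against the 16 Cyp2c rows, P450 genes of drug and fatty acid metabolism, they stood at 0.0488% to 0.144% and at 0.626% to 1.39%. Neither pair of ranges overlapped.

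**Figure D2:**
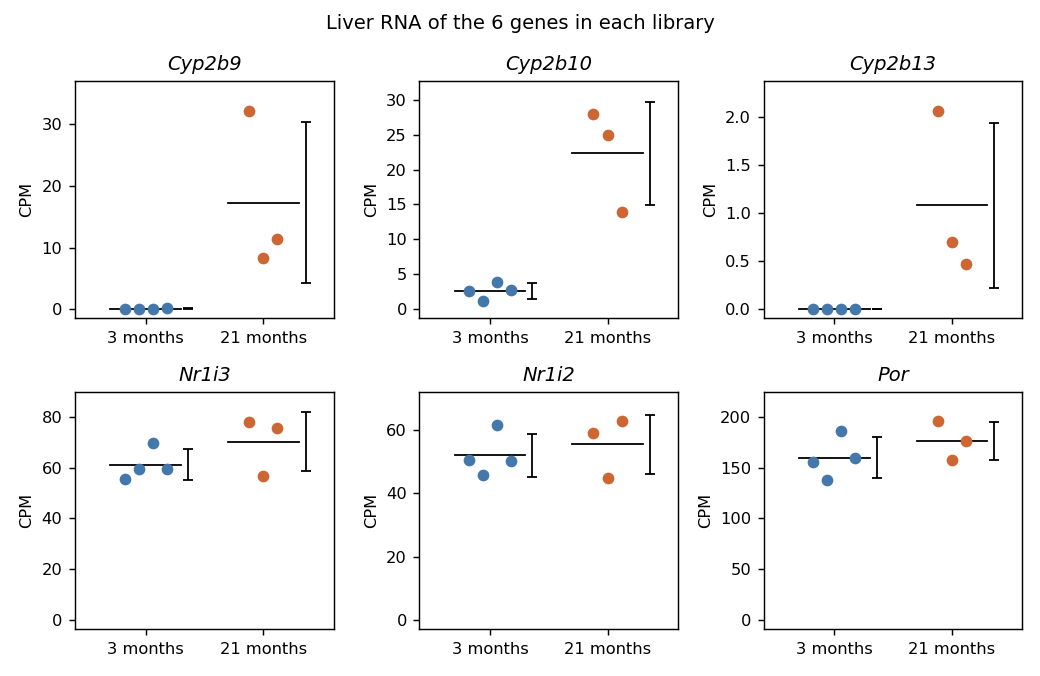
CPM (y axis, linear) of the 6 genes by age (x axis); each point is 1 library, lines are means and bars to the right are 1 SD (n = 4 and n = 3). The 3 Cyp2b panels separate the ages (Cyp2b10 reaches 3.84 CPM at 3 months and starts at 13.9 CPM at 21 months), and those of Nr1i3, Nr1i2 and Por overlap.

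The receptor genes did not pass the test. Nr1i3, the gene of CAR, was at 55.7, 59.6, 69.8 and 59.7 CPM in 3-month replicates 1 to 4 and 78.0, 56.8 and 75.8 CPM in 21-month replicates 1 to 3. Old replicates 1 and 3 lay above every young library, and old replicate 2 lay within their range. The log2 fold change was 0.20 ± 0.12 SE (95% interval -0.06 to 0.46; edgeR adjusted p = 0.312), so with all libraries an increase beyond 1.38-fold lies outside the interval. With 1 library left out it ranged from 0.12 to 0.35, the highest without old replicate 2 (0.35 ± 0.11 SE, edgeR adjusted p = 0.0606). The expected counts of Nr1i3 were fractional in all libraries. The spans of Nr1i3 and its neighbour Tomm40l, a gene of the mitochondrial import family, overlap in RefSeq. The sum of both rows was whole within 0.02 counts in 6 of 7 libraries. Summed, they were at 106 ± 8.69 CPM (SD, n = 4) and 114 ± 14.7 CPM (SD, n = 3), a log2 fold change of 0.10 ± 0.11 SE (edgeR adjusted p = 0.592). This sum was added after the counts were seen.

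Nr1i2, the gene of PXR, had whole counts in every library. It was at 50.6, 45.7, 61.7 and 50.3 CPM in the young and 59.0, 45.0 and 62.8 CPM in the old livers. The ages overlapped, with an old library the lowest and another the highest. The log2 fold change was 0.10 ± 0.13 SE (95% interval -0.17 to 0.38; edgeR adjusted p = 0.667), and its sign turned (log2 fold change -0.0087) with a covariate for how far each library's effective gene lengths fell short of the full lengths. That shortfall, which RSEM takes from fragment length, was 34.4 to 38.8 bases in young libraries and 35.4, 30.9 and 21.4 bases in old ones, and its part in the results was not tested further. On the TPM scale Nr1i3 exceeded Nr1i2 2.04-fold to 2.42-fold in young and 2.22-fold to 2.48-fold in old livers.

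Por, the electron donor of the microsomal P450s, was the most abundant of the 6. It was at 155, 137, 186 and 159 CPM in 3-month replicates 1 to 4 and at 196, 158 and 176 CPM in 21-month replicates 1 to 3. The ages overlapped (log2 fold change 0.15 ± 0.11 SE, 95% interval -0.09 to 0.39; edgeR adjusted p = 0.447). The summed TPM of the 101 P450 rows was 15949 to 17302 at 3 months and 19772 to 22801 at 21 months. It came to 111 to 142 times that of Por in young and 133 to 147 times in old livers, ranges that overlap. TPM here lay above the count scale: the median log2 fold change of all genes was 0.10 on it, and 74.9% of its calls were higher, against 48.3% by counts.

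By TPM, the order in each young library was Por (116 to 157), Nr1i3 (75.4 to 106), Nr1i2 (35.7 to 50.8), Cyp2b10 (1.35 to 4.27) and then the other copies. None of those ranges overlapped. In old livers the ranges of Por (140.3 to 160), Nr1i3 (90.8 to 119), Nr1i2 (38.9 to 53.8) and Cyp2b10 (16.2 to 30.1) did not overlap either. The ranges of Cyp2b10 and Cyp2b9 (9.67 to 34.6) overlapped there. Summed, Cyp2b exceeded Nr1i2 in 21-month replicates 1 (66.98 against 46.87 TPM) and 2 (40.02 against 38.92) and was below it in replicate 3 (30.08 against 53.77).

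Other genes known to respond to CAR or PXR were mostly higher or did not pass. Of 46 such genes outside Cyp2b, 45 were in the tables and 41 were tested. By edgeR 19 rose and 1 fell, 48.8% called, against 11.3% of all genes tested. The median log2 fold change was 0.48, against -0.0015 over all genes tested. The list was chosen with results of these livers known, so its count is no independent evidence. Many of its Cyp2c and Gst rows have close copies that can share reads.

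Among the rises with the smallest p-values was Cyp2c37, a P450 that rose 2.57-fold (log2 fold change 1.36 ± 0.15 SE; edgeR adjusted p = 0.000438). The glutathione transferases Gstt3 and Gstt1 rose 2.62-fold and 1.78-fold, and Cyp2c29 rose 1.70-fold. Cyp3a11, the classic PXR target, chosen here after its values were seen, was at 1687 ± 298 CPM (SD, n = 4) and 2925 ± 580 CPM (SD, n = 3), a rise of 1.73-fold (edgeR adjusted p = 0.00751). The fall was of Cyp2a4, a female-biased steroid hydroxylase (4.02-fold; edgeR adjusted p = 0.000467). Its close copy Cyp2a5, with which it can share reads, was at 211 ± 41.8 CPM (SD, n = 4) and 324 ± 73.0 CPM (SD, n = 3), with a log2 fold change of 0.62 (edgeR adjusted p = 0.0606). It was chosen after its values were seen, and it passed with the replicate number as a block (edgeR adjusted p = 0.00138) and by DESeq2 (adjusted p = 0.00536). Genes that did not pass include Cyp1a2 (log2 fold change -0.39; edgeR adjusted p = 0.114) and Alas1, the rate-limiting enzyme of heme synthesis (-0.69; 0.460), both chosen after their values were seen. Alas1 passed as lower with the replicate block (log2 fold change -0.92, edgeR adjusted p = 0.00492). The number of rises dropped to 12 without 21-month replicate 3. It was 11 with the length shortfall as a covariate, where the calls of Abcb1a, Abcc3, Cyp2c38, Cyp2c55, Cyp3a11, Gsta2, Gstm1 and Ugt1a1 were lost.

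**Figure D3:**
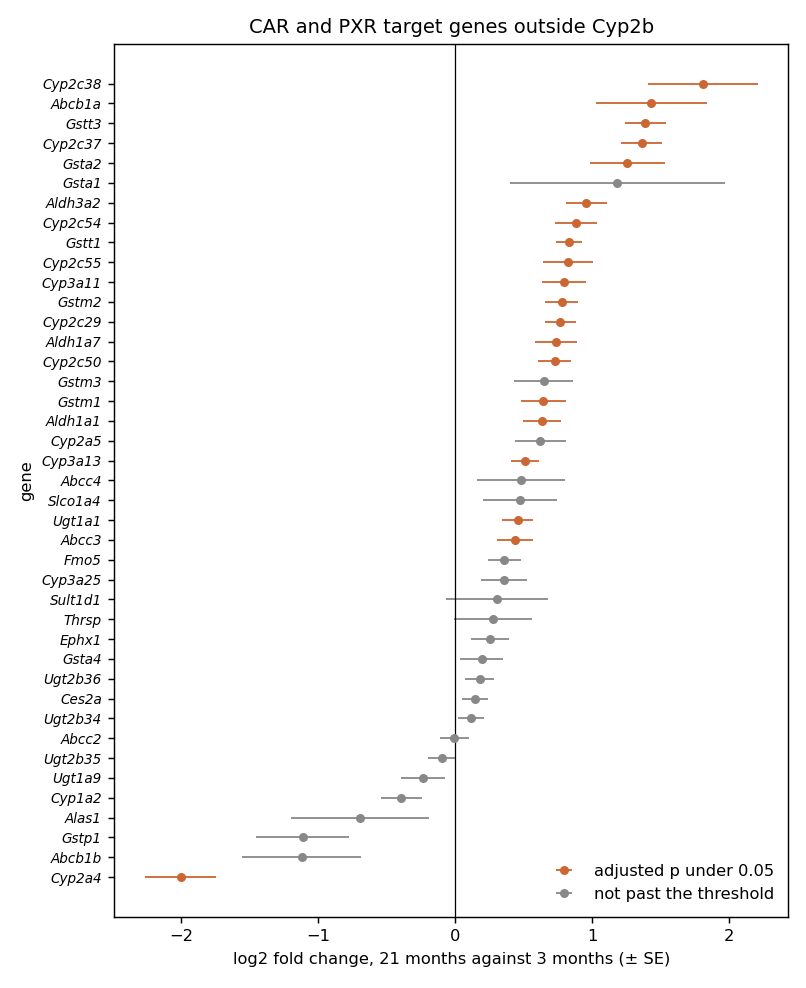
Log2 fold change with SE (x axis) of the 41 tested CAR and PXR target genes outside Cyp2b (y axis, sorted); orange points have an edgeR adjusted p under 0.05. Of these, 19 lie to the right of 0 and Cyp2a4 to the left, and the other 21 did not pass.

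Of 18 tested partners and coregulators of the receptors, 3 rose. Cebpb, a liver transcription factor, rose 1.64-fold (edgeR adjusted p = 0.00128), from 32.5 to 40.6 CPM in young to 53.5 to 64.7 CPM in old livers. The coactivator Ppargc1a and the insulin-responsive factor Foxo1 rose 1.80-fold and 1.33-fold (edgeR adjusted p = 0.0348 and 0.0459). Leaving out any 1 young library, or old replicate 2 or 3, ended both calls (edgeR adjusted p up to 0.116 and 0.140), and so did DESeq2. Rxra, the DNA-binding partner of both receptors, chosen after its values were seen, was at 461 ± 32.2 CPM (SD, n = 4) and 493 ± 88.5 CPM (SD, n = 3) (log2 fold change 0.10, edgeR adjusted p = 0.647; -0.030 without 21-month replicate 2).

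Of 13 genes tied to the cytosolic retention of CAR and the signals that release it, 0 rose by edgeR and 2 fell, beside 659 of 11251 genes lower overall. At an unadjusted p under 0.05, 2 were higher, and DESeq2 called 0 higher and 1 lower. Egfr, the EGF receptor, whose signalling is known to keep CAR in the cytosol, was at 536, 456, 473 and 532 CPM in 3-month replicates 1 to 4. In 21-month replicates 1 to 3 it was at 183, 279 and 220 CPM. Every old library lay below every young one, which held for 12.8% of genes tested. The fall was 2.19-fold (log2 fold change -1.13 ± 0.13 SE, edgeR adjusted p = 0.00026). Dnajc7, a cochaperone that retains CAR, fell 1.31-fold (edgeR adjusted p = 0.0405). Leaving out young replicate 2, 3 or 4, or old replicate 2 or 3, ended that call (edgeR adjusted p up to 0.173), as did the replicate block (0.111). Of 6 tested electron transfer partners of P450, 1 was called, beside 11.3% of all genes tested. Pgrmc2, a heme-binding membrane protein, rose 1.26-fold (edgeR adjusted p = 0.0424). It did not pass when young replicate 1, 2 or 4, or old replicate 1 or 3, was left out (edgeR adjusted p up to 0.114), or with the block (0.0813). With library size scaling, no filter on low counts or the length shortfall as a covariate, 0 of this list were called higher by edgeR.

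Since Cyp2b9 and Cyp2b13 are female-predominant, other sex-biased genes were read beside them. Of 16 female-biased genes outside Cyp2b, 11 were too scarce to test, so calls among the other 5 do not describe the list. Those called higher were the fatty acid hydroxylase Cyp4a14 (17.6-fold), the receptor Ntrk2 (9.12-fold) and the hepcidin gene Hamp2 (2.17-fold), and Cyp2a4, counted above, was called lower. Ntrk2 reached the filter's 1.45 CPM in 0 of 4 young and 3 of 3 old libraries, so its test, too, rests on the age at which it is high. Cyp4a14 did not pass when young replicate 1, 2 or 4, or old replicate 1 or 3, was left out (edgeR adjusted p up to 0.1001), or with the block (0.0529). Hamp2 did not pass with old replicate 3 left out (0.0575), where 1 of these 3 was called. Of the scarce genes, Sult2a1 and Cyp3a41b were at 0 in all libraries. Of 16 male-biased genes outside the major urinary proteins, 9 fell and 0 rose by edgeR, with a median log2 fold change of -0.68. Over all genes tested, 5.86% were called lower and 5.47% higher, and the median was -0.0015. At an unadjusted p under 0.05, 0 were higher, and DESeq2 called 11 lower and 0 higher. The falls called were 4 with old replicate 3 left out and 5 with the length shortfall as a covariate. Both sex-biased lists were chosen with results of these livers known. The male-biased falls include Ugt2b38 (4.17-fold), Nudt7 (1.76-fold), the complement gene C6 (1.80-fold), Cyp2d9 (1.55-fold) and the transporter Slco1a1 (1.43-fold), of which Slco1a1 was not called with old replicate 3 left out (edgeR adjusted p = 0.0634). With the length shortfall as a covariate, Nudt7 (0.0590) and Slco1a1 (0.171) were not called, and limma on log2(TPM + 1) did not call Slco1a1. Of 11 tested regulators of growth hormone action and sex bias, 1 was called by edgeR (9.09%), near the 11.3% of all genes tested. At an unadjusted p under 0.05, 1 was higher and 2 lower, and DESeq2 called 2 higher and 0 lower. With 1 library left out, edgeR called 0 to 2 higher and 0 to 2 lower. The gene called with all libraries was Trim24, a nuclear receptor coregulator, which rose 2.16-fold (edgeR adjusted p = 0.0158). It did not pass with young replicate 3 or old replicate 3 left out (edgeR adjusted p up to 0.0539), or with the block (0.0563) or the length shortfall as a covariate (0.0600). Of 14 Wnt-dependent genes of the pericentral zone, where Cyp2b10 is known to be induced, 0 were called by edgeR and 0 by DESeq2, with a median log2 fold change of -0.08; at an unadjusted p under 0.05, 0 were higher and 3 lower.

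Across the 7 libraries, the genes most like Cyp2b10, Nr1i3, Nr1i2 and Por in log2(CPM + 1) were taken from 8760 others with a mean of at least 5 CPM. For Cyp2b10 they were Fzd1, Olfr613 and Abhd14b (Pearson r = 0.988, 0.986 and 0.984). For Nr1i3 they were Ndufa9, Akr1c19 and Zfp639 (0.985, 0.974 and 0.973), for Nr1i2 Creg1, Apmap and Dctn4 (0.974, 0.969 and 0.955), and for Por Htatip2, Hnrnpa1 and Cyp26a1 (0.964, 0.963 and 0.956). These are descriptions over points that share the split between ages and each library's depth.

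The share of genes called differed between settings. It was 10.1% by DESeq2, 11.3% with RLE scaling, 9.17% with scaling by library size, 8.35% with no filter on low counts, 14.1% at a mean of at least 5 CPM and 11.5% without ribosomal RNA rows. It was 9.94% by limma on log2(TPM + 1), 2.95% with the length shortfall as a covariate and 9.49% with the replicate block. With young replicates 1 to 4 left out in turn it was 8.07%, 7%, 7.39% and 6.57%, and with old replicates 1 to 3 left out 14.4%, 9.94% and 5.1%. Cyp2b10 and the Cyp2b sum were called in each of these. With the length shortfall as a covariate, the calls lost among genes named here also included Cyp4a14, Hamp2, Dnajc7, Pgrmc2, Foxo1 and Ppargc1a.

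**Figure D4:**
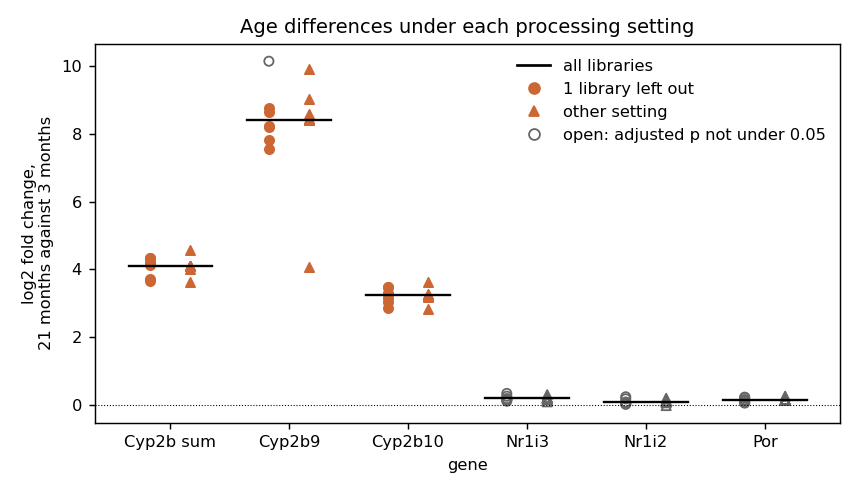
Log2 fold change (y axis) of the summed Cyp2b rows and 5 members (x axis) with all libraries (lines), with 1 library left out (circles) and under other settings (triangles); open symbols did not pass. The Cyp2b sum stays between 3.62 and 4.56, Cyp2b9 is open once, without 3-month replicate 4, and Nr1i3, Nr1i2 and Por are open throughout.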

How the data were processed

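Per the labels' protocols, mRNA-enriched RNA of 7 liver samples was made into strand-specific libraries. The submitters' processing notes name TopHat, RSEM, edgeR and mm9, with no version or role. The authors deposited expected counts as RSEM estimates them, TPM values scaled for gene length, FPKM values (not used here) and, per the file headers, gene lengths; 86.5% of expected counts were whole.

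Expected counts were rounded, filtered with filterByExpr (minimum count 10, total 15), scaled by TMM and tested with edgeR 4.0.16 (robust quasi-likelihood, Benjamini-Hochberg over all genes tested, threshold 0.05) in R 4.3.3. The fit was tested on simulated data. A library's median shortfall of effective length, 21.4 to 38.8 bases, stands for fragment length as a covariate. Alternatives used DESeq2 1.42.0, limma 3.58.1 on log2(TPM + 1), other scaling and filters, the replicate block and 1 library left out. Deviations of same-numbered libraries of both ages correlated weakly (Pearson r = 0.123, 0.155 and 0.142 over 8761 genes), and those of differently numbered libraries at -0.206 to 0.139. The main comparison has no replicate block; the fit with it is an alternative and leaves out 3-month replicate 4. All 21 pairs of libraries differed by more than counting noise.

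Members and lists were chosen with earlier results of these data known. Named genes are the members, up to 5 called genes per list by smallest p, and the 3 most similar genes of 4 members; others are marked. Motifs and promoters were read from RefSeq, build GRCm38.p6. Some listed genes are not reported here.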

Additional observations from a re-analysis of the deposited data

Results flagged for a closer look

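In the 3-month group, the CPM of Cyp2b9 in replicate 4 stood apart from the other 3. The gap to the nearest library divided by the range of the group was 1, above the 95% critical value of Dixon's test for 4 samples. It rests on 1 expected count (0.162 CPM) against 0 in the others. With the other 3 libraries at 0 this quotient is 1 whatever the value in replicate 4, so it says nothing beyond that count.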

How the results depend on the processing

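The summed Cyp2b rows and Cyp2b10 stayed higher and past the threshold in every setting run (log2 fold change 3.62 to 4.56 and 2.83 to 3.62), and summing all 5 Cyp2b rows changed nothing, since Cyp2b19 and Cyp2b23 were at 0. Cyp2b9 ranged from 7.55 to 10.13 with 1 library left out, and was 4.08 on log2(TPM + 1), a scale that understates low genes. Nr1i3, Nr1i2 and Por passed in none of the settings run. With the shortfall of effective length as a covariate, 332 genes were called, against 1274, the CAR and PXR targets called higher were 11, and Nr1i2 was at -0.0087. With 1 library left out, 580 to 1642 genes were called (773, 834 and 745 without 3-month replicates 2, 3 and 4, and 580 without 21-month replicate 3), 12 to 20 targets were higher and 1 to 3 lower. The lower targets numbered 2 by DESeq2 (Gstp1 added) and 2 with the replicate block (Alas1 added). The block ended the calls of Abcb1a, Cyp4a14, Dnajc7, Pgrmc2, Pparg, Trim24 and Abcc3 and no call of a member, and it added Alas1 as lower and 3 targets as higher, Cyp2a5 among them; the Cyp2b9 log2 fold change was 9.89 with it. Rxra ranged from -0.030 (without 21-month replicate 2) to 0.21 with 1 library left out. The cause of these shifts was not tested. The depth limits Cyp2b9 and Cyp2b13 at 3 months, where 3 counts are 0.257 to 0.607 CPM by library.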

Other observations

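Other nuclear receptors were read beside Nr1i3 and Nr1i2. Esr1, the estrogen receptor, rose 1.79-fold (edgeR adjusted p = 0.00459), from 6.65 to 9.44 CPM in young to 13.2 to 16.8 CPM in old livers. Each old library exceeded each young one, which held for 11.3% of genes tested. Pparg, a regulator of lipid storage, rose 1.61-fold (edgeR adjusted p = 0.0232), which did not pass when young replicate 2 or 4, or old replicate 2 or 3, was left out (up to 0.0679), or with the replicate block (0.0616). With the length shortfall as a covariate the call of Pparg was lost (0.122).

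Of 12 genes of heme synthesis and breakdown, which supply or recycle the P450 cofactor, 1 rose (8.33%), near the 5.47% of all genes called higher and the 11.3% called in either direction. It was Blvrb, a biliverdin reductase (1.38-fold; edgeR adjusted p = 0.0235), which did not pass when young replicate 2 or 4, or old replicate 3, was left out (up to 0.117), or with the length shortfall as a covariate (0.377). The median log2 fold change of that list was -0.01.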
